A study of Sus scrofa with 64 samples.

Results

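The subunits of AMP-activated protein kinase (AMPK) were followed over 16 tissues of 4 pigs. All 7 genes of the enzyme had a probe on the array: the catalytic subunits PRKAA1 and PRKAA2, the scaffold subunits PRKAB1 and PRKAB2, and the nucleotide-binding subunits PRKAG1, PRKAG2 and PRKAG3. They were found by the gene symbol of the platform annotation, which gave 9 probes of 23935, with 2 probes each for PRKAA1 and PRKAG1 and 1 for each of the other 5 genes. Total RNA of each tissue and animal was hybridised to its own Affymetrix porcine array, 64 arrays in all. The animals were a Large White male (38.8 kg) and a Large White female (36.2 kg), at an average age of 87 days, and an Iberian female (32.8 kg) and an Iberian male (25.4 kg), at an average age of 89 days. They were bought from 2 breeding companies at weaning and then kept over the same period on the same diets, and no treatment is given. Each breed and sex was thus present as 1 animal, and breed cannot be told apart from body weight, age or the company of origin. The tissues were 2 skeletal muscles (diaphragm and biceps femoris, a muscle of the thigh), abdominal fat and back fat, stomach, ileum and liver, whole blood, thyroid gland, cortex and medulla of the adrenal gland, and 5 tissues of brain and pituitary (hypothalamus, olfactory bulb, pineal gland, neurohypophysis and adenohypophysis).

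AMPK is a heterotrimer of an α, a β and a γ subunit that senses the energy state of the cell. The γ subunit binds AMP, ADP or ATP, the β subunit holds the complex together and binds glycogen, and the α subunit carries the kinase, which is switched on through phosphorylation by the LKB1 complex or by calcium-dependent kinases. The active enzyme turns on glucose uptake and fatty acid oxidation and turns off the synthesis of glycogen, fatty acids and cholesterol. In mammalian skeletal muscle the α2 and β2 forms are known to predominate, and the γ3 form, PRKAG3, is known from fast glycolytic muscle: it is the gene of the RN locus of the pig, where a substitution raises muscle glycogen and lowers the pH of the meat.

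Levels are log2 values after RMA, so that a difference of 1 is a doubling of signal, and they ranged from 1.78 to 14.47 over the array with a median of 5.47. The level of a probe depends on its own binding, so levels are compared between tissues and animals for the same probe and never between genes. The file holds no detection calls, and a low level cannot be told from background. Fewer cells of a type and less RNA per cell cannot be told apart in such samples. Markers of muscle and blood were in place. The 7 probes of 5 skeletal muscle genes averaged 10.54 to 11.07 in the 8 muscle arrays and 3.26 to 4.84 elsewhere. The 5 blood cell probes averaged 9.28 to 9.64 in blood and 4.42 to 6.44 elsewhere. All markers of fat (7 probes), liver (6), stomach (5) and thyroid gland (3) were highest in their own tissue, against 2 of 5 for hypothalamus. Neurohypophysis had glial markers at 4.18 to 5.24, against 8.90 to 9.12 in hypothalamus. It had adenohypophysis markers at 4.84 to 6.53, against 9.19 to 9.72 in adenohypophysis. Adrenal cortex and medulla were mixed, with cortical markers at 9.72 to 10.09 in cortex and at 9.59 to 9.91 in medulla. There were 2 arrays that stood apart from the other 3 of their tissue, by the mean of 1 minus the squared correlation over all probes. The biceps femoris array of the Iberian female was at 0.189, against 0.0840 to 0.0990 for the other 3 biceps arrays. The pineal gland array from the Large White male was at 0.132 and had pineal markers at 4.79 and glial markers at 8.58, against 6.95 to 7.76 and 5.30 to 5.96 in the other 3 pineal arrays.

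All 9 probes differed among tissues in limma (98.2% of all probes did), but over very different spans. Between its highest and its lowest tissue mean PRKAA2 spanned 5.96 log2 units, a 62.4-fold range that was wider than that of 95.9% of all probes. PRKAB2 spanned 2.81, PRKAG2 2.40, PRKAB1 2.08 and PRKAG3 1.77, against a median of 1.74 over all probes. PRKAA1 and PRKAG1 varied least, by 1.46 and 1.18 on their brighter probes. Of the 1080 comparisons of a member probe between 2 tissues, 564 passed, while 46.4% passed over all probes. Against the mean of the other 15 tissues a member probe differed in 78 of 144 cases, where 50.2% did over all probes. Blood and biceps femoris had the most calls, 8 of 9 each (78.5% and 65.3% of all probes), followed by diaphragm and olfactory bulb with 7 each (49.7% and 51.3%). Adenohypophysis had the fewest, 2 (44.7%), and stomach, adrenal cortex and adrenal medulla had 3 each (39.5%, 38.9% and 43.7%). The number of calls among the subunits was therefore near the background of an array on which most probes differ between tissues, and the size and place of the differences carry the description. Values of a tissue are listed below in the order Large White male, Large White female, Iberian female, Iberian male.

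**Figure D1:**
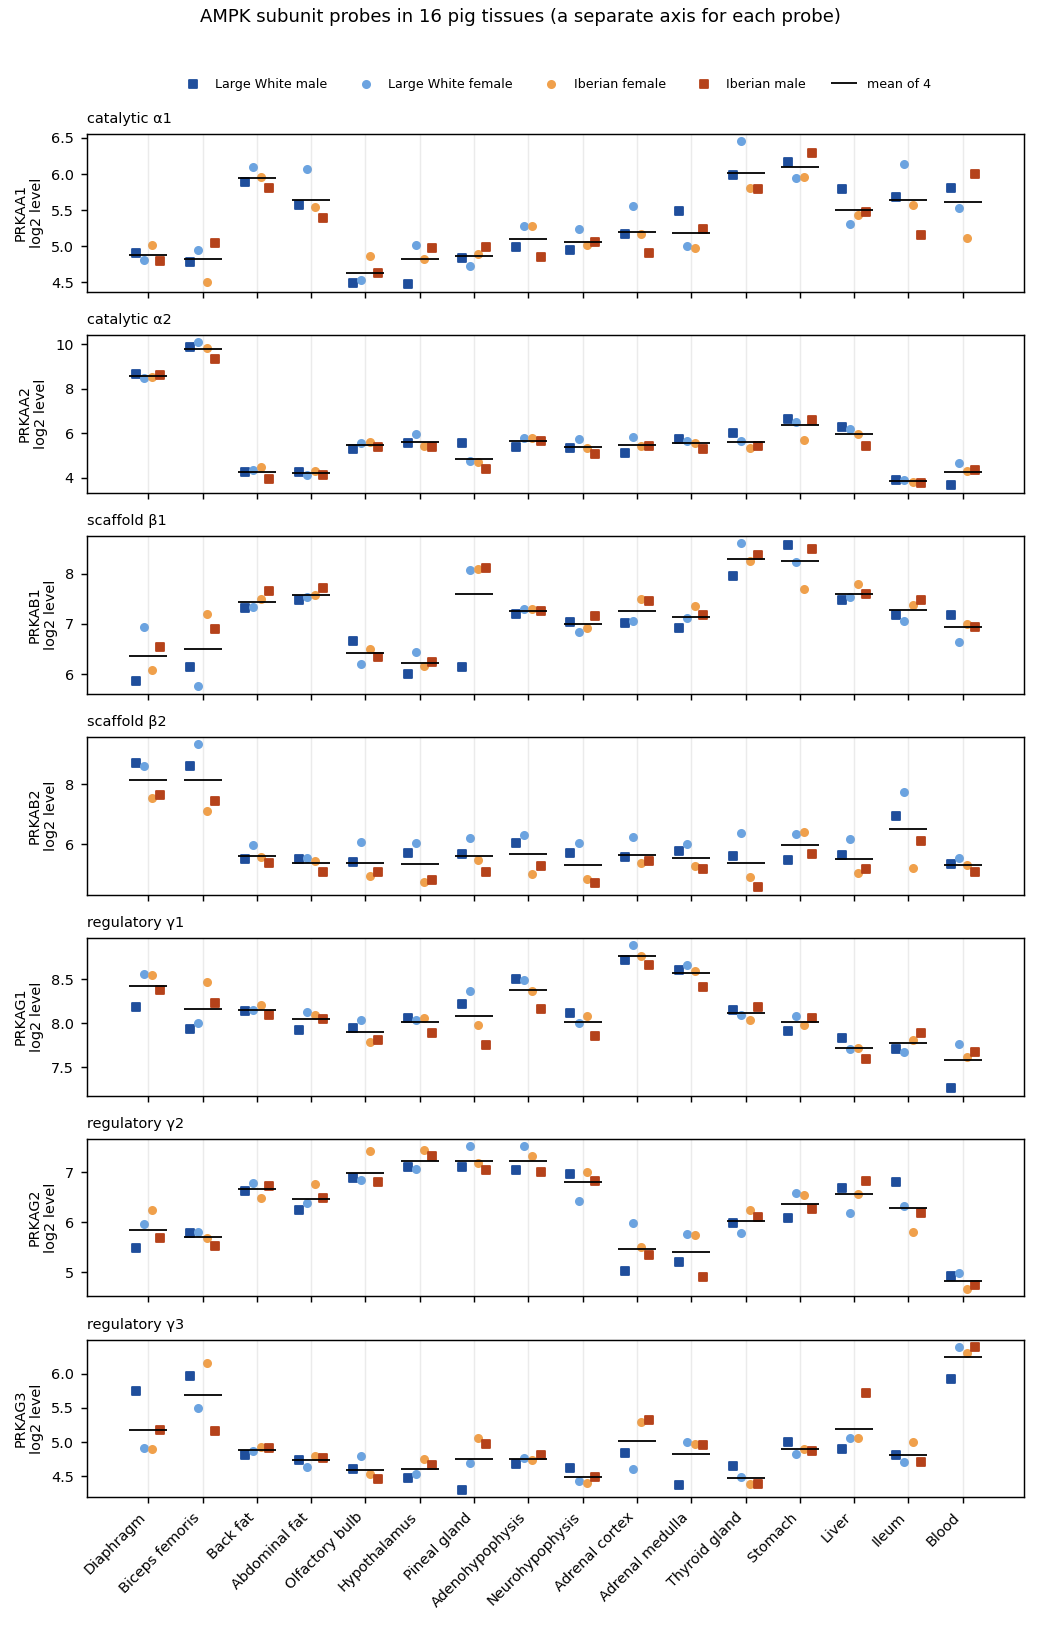
Log2 levels of the 7 AMPK subunit genes, 1 panel per gene with its own axis, in the 16 tissues. Each point is 1 array, coloured by animal, and the line is the mean of 4 arrays: PRKAA2 and PRKAB2 stand out in the muscles, PRKAG2 in brain and pituitary, PRKAG1 in the adrenal gland and PRKAG3 in blood, while the pineal value of PRKAB1 in the Large White male lies at 6.15, below the other 3.

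PRKAA2, which encodes the α2 catalytic subunit, was the subunit with the clearest muscle pattern. In diaphragm it measured 8.68, 8.49, 8.53 and 8.64, and in biceps femoris 9.90, 10.11, 9.82 and 9.36. The other 56 arrays lay between 3.65 and 6.63 with a median of 5.39. Every muscle array was thus above every other array, by at least 1.86, an arrangement shared by 2.01% of probes. The 4 biceps arrays alone were also above all the others, by 0.68 (0.781% of probes). Averaged over both muscles the level was 4.02 ± 0.10 (SE) higher than in the other 14 tissues, a 16.2-fold difference (adjusted p = 3.7e-38, limma). Behind the muscles came stomach with 6.36 ± 0.44 (SD, n = 4) and liver with 5.97 ± 0.38. From stomach down to neurohypophysis, ranks 3 to 11 of 16, no tissue differed from the next in the order.

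The lowest levels of PRKAA2 were those of ileum, at 3.87, 3.90, 3.79 and 3.77, followed by abdominal fat at 4.26, 4.12, 4.29 and 4.13. Blood varied more, at 3.65, 4.64, 4.32 and 4.35. Ileum, both fats and blood were each lower than the mean of the other tissues under every processing alternative, by 1.96 ± 0.13 (SE) in ileum, 1.57 ± 0.13 in abdominal fat, 1.53 ± 0.13 in blood and 1.5 ± 0.13 in back fat. The mean of the other tissues includes the muscles, which raise it. Among these 4 tissues no neighbours in the order differed. Pineal gland was low as well, with 4.76, 4.70 and 4.39 in 3 animals and 5.58 in the Large White male, whose array carried glial rather than pineal markers.

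PRKAA1, the gene of the broadly expressed α1 catalytic subunit, ran the other way in muscle. It was highest in stomach, at 6.16, 5.94, 5.96 and 6.30, with thyroid gland at 5.99, 6.46, 5.80 and 5.80 and back fat at 5.89, 6.09, 5.96 and 5.81. These 3 tissues did not differ from each other beyond their spread. The lowest level was in olfactory bulb, at 4.49, 4.54, 4.87 and 4.63, followed by biceps femoris at 4.78, 4.94, 4.51 and 5.04 and hypothalamus at 4.47, 5.02, 4.82 and 4.97. No step between neighbours in its order of 16 tissues passed the test, so that no break could be placed in the order. The widest step was 0.30, from liver to adrenal cortex (adjusted p = 0.16, limma). Both muscles together were 0.53 ± 0.09 (SE) lower than the other tissues (adjusted p = 1.0e-06, limma), with the 8 muscle arrays at 4.51 to 5.04 inside the range of 4.47 to 6.46 of the other 56.

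The second probe of PRKAA1 gave a flatter picture of the same order, with a Pearson r of 0.88 to the brighter probe over the 16 tissue means. It was highest in thyroid gland (4.93 ± 0.17, SD, n = 4) and back fat (4.82 ± 0.27) and lowest in olfactory bulb (3.96 ± 0.28). Stomach lay 0.83 above the mean of the other tissues on the brighter probe and 0.24 above it on the second (adjusted p = 0.14). Abdominal fat differed in sign, with 0.35 above on the brighter probe and 0.13 below on the second. In muscle the second probe was 0.22 ± 0.09 (SE) lower (adjusted p = 0.034), but this call was lost without the Large White male (adjusted p = 0.052), the Iberian female (0.15) or the Iberian male (0.055), and without the 2 arrays that stood apart (0.28). The annotation used by the study names a further probe as PRKAA1, which correlated with the brighter probe at r = 0.55 over the tissue means. It was highest in thyroid gland (7.15 ± 0.21, SD, n = 4) and lowest in biceps femoris (4.24 ± 1.02), where the Iberian female read 2.74.

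**Figure D2:**
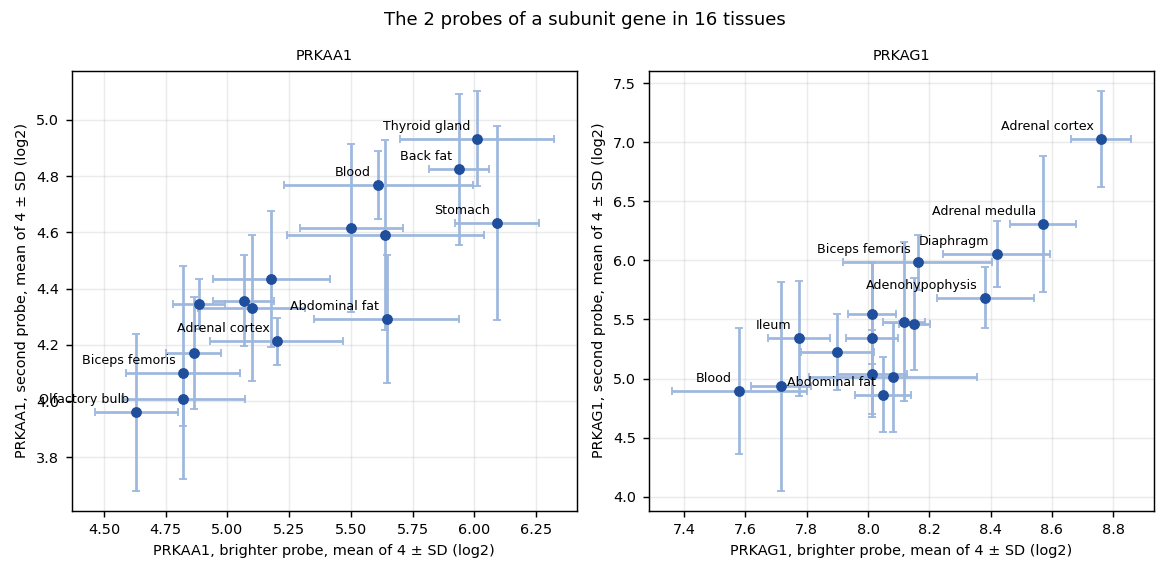
Tissue means of the brighter probe (horizontal axis) against the second probe (vertical axis) of PRKAA1 and of PRKAG1, in log2 units with the SD of 4 arrays as bars. The probes of each gene order the 16 tissues alike, with r of 0.88 for PRKAA1 and 0.87 for PRKAG1, and for PRKAG1 both are highest in adrenal cortex.

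The scaffold subunits were as opposed in muscle as the catalytic ones. PRKAB2, the β2 gene, measured 8.71, 8.60, 7.56 and 7.65 in diaphragm and 8.60, 9.35, 7.13 and 7.44 in biceps femoris. The other 56 arrays had a median of 5.50 and reached 7.75 in the ileum of the Large White female, so that the muscle arrays overlapped with the rest through that 1 array. The 4 values of ileum were 6.94, 7.75, 5.21 and 6.10. Over both muscles PRKAB2 was 2.54 ± 0.14 (SE) higher than in the other tissues, or 5.84-fold (adjusted p = 5.9e-23, limma). Diaphragm and biceps femoris had the same mean of 8.13, and the step from biceps to ileum, 1.63, was the only one between neighbours that passed. The remaining 13 tissues had means between 5.32 in blood and 5.98 in stomach. Averaged over the tissues the SD between animals was 0.56 for PRKAB2, more than for the brighter probes of the other genes, although not in every tissue, as in blood at 0.19 against 0.42 for PRKAA2. The breed values are given further on.

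PRKAB1, the gene of the β1 subunit, was lower in muscle by 0.87 ± 0.13 (SE; adjusted p = 5.5e-08, limma). In diaphragm it stood at 5.86, 6.94, 6.08 and 6.54, and in biceps femoris at 6.15, 5.76, 7.20 and 6.91, while the other 56 arrays ranged from 6.01 to 8.61. The levels of the 2 groups overlapped. Hypothalamus was as low, at 6.01, 6.44, 6.17 and 6.25, and so was olfactory bulb, with a mean of 6.42 ± 0.20 (SD, n = 4). At the upper end stood thyroid gland, at 7.94, 8.61, 8.25 and 8.38, and stomach, at 8.56, 8.23, 7.70 and 8.49. Thyroid gland was 1.17 ± 0.18 (SE) and stomach 1.12 ± 0.18 above the mean of the other tissues, and they did not differ from each other. In pineal gland 3 animals had 8.07, 8.09 and 8.10, close to thyroid gland, whereas the array of the Large White male read 6.15, close to hypothalamus. Over all 4 pineal arrays PRKAB1 was 0.44 ± 0.18 higher than in the other tissues (adjusted p = 0.037), a call that was lost without the Large White female (adjusted p = 0.30), the Iberian female (0.25) or the Iberian male (0.30), after a further quantile normalization (0.070) and on the natural logarithm (0.067). Without the pineal array that stood apart the difference was 0.90 ± 0.16 (adjusted p = 4.9e-06).

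Among the γ subunits, PRKAG1, which encodes the ubiquitous γ1 form, was the most even on its brighter probe, while its second probe spanned 2.17 log2 units. The adrenal cortex read 8.73, 8.89, 8.77 and 8.66 and the adrenal medulla 8.61, 8.66, 8.59 and 8.42. All 4 cortex arrays lay above every other array, but only by 8.8e-04, since the medulla of the Large White female reached nearly the same level. Such an arrangement for adrenal cortex was shared by 0.0543% of probes. The cortex was 0.70 ± 0.08 (SE) above the other tissues (adjusted p = 7.2e-11, limma) and the medulla 0.49 ± 0.08 (adjusted p = 4.8e-07). The difference of 0.19 between the 2 parts did not pass the test, and their markers were mixed as given above. Diaphragm (8.42 ± 0.18, SD, n = 4) and adenohypophysis (8.38 ± 0.16) followed. At the low end stood blood, at 7.26, 7.77, 7.62 and 7.67, liver (7.72 ± 0.10) and ileum (7.77 ± 0.10). Blood was 0.56 ± 0.08 (SE) under the other tissues (adjusted p = 4.6e-09). This call was lost after a further quantile normalization, where blood was 0.02 ± 0.08 above them (adjusted p = 0.87). In blood the median difference over all probes was 0.11.

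The second probe of PRKAG1 showed the adrenal peak more strongly, with 6.56, 7.54, 7.12 and 6.90 in cortex, 1.62 ± 0.23 (SE) above the other tissues (adjusted p = 4.0e-08, limma). Medulla was next, at 6.59, 6.75, 6.42 and 5.47, or 0.85 ± 0.23 above (adjusted p = 0.0019). On this probe abdominal fat was lowest, at 5.12, 4.42, 4.84 and 5.07, and the animals differed more, with an average SD of 0.45 within a tissue against 0.13 for the brighter probe. The muscles were higher on both probes, by 0.21 ± 0.06 on the brighter one (adjusted p = 8.6e-04) and by 0.58 ± 0.16 on the second (adjusted p = 0.0018). Without the Iberian female the first of these no longer passed (adjusted p = 0.085).

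PRKAG2, the gene of the γ2 subunit, was the only member that was higher in brain and pituitary, and the difference held in each of the 5 tissues. It measured 7.11, 7.07, 7.44 and 7.32 in hypothalamus, 7.05, 7.53, 7.33 and 7.0 in adenohypophysis, and 7.12, 7.53, 7.18 and 7.06 in pineal gland. Olfactory bulb had 6.89, 6.85, 7.43 and 6.80, and neurohypophysis 6.97, 6.42, 7.01 and 6.83. None of these 5 tissues differed from hypothalamus, the highest. Together they were 1.13 ± 0.07 (SE) or 2.19-fold above the other 11 tissues (adjusted p = 1.9e-20, limma), and the ranges met, with 6.42 to 7.53 over 20 arrays against 4.66 to 6.82 over 44. The pineal value of the Large White male, 7.12, was within the range of the other 3. Blood was lowest, at 4.92, 5.00, 4.66 and 4.75, and 0.58 below the next tissue (adjusted p = 0.0041). Adrenal medulla (5.41 ± 0.42, SD, n = 4), adrenal cortex (5.47 ± 0.40), biceps femoris (5.70 ± 0.13) and diaphragm (5.85 ± 0.33) were low too, and the muscles were 0.62 ± 0.10 (SE) under the other tissues (adjusted p = 1.9e-07).

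PRKAG3, the γ3 gene of the RN locus, did not have muscle as its highest tissue on this array. Blood was highest, with 5.93, 6.38, 6.29 and 6.39, and biceps femoris was second, with 5.96, 5.50, 6.16 and 5.16. Liver had 4.90, 5.06, 5.06 and 5.72 and diaphragm 5.75, 4.91, 4.89 and 5.18. The lowest was thyroid gland, at 4.65, 4.49, 4.39 and 4.39. Only the first pair of steps in the order passed, from blood to biceps femoris (0.55, adjusted p = 0.0043, limma) and from biceps femoris to liver (0.51, adjusted p = 0.010). Blood was 1.39 ± 0.13 (SE) and biceps femoris 0.80 ± 0.13 above the mean of the other tissues, both under every alternative, and diaphragm differed by 0.25 ± 0.13 (adjusted p = 0.091).

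The level of this PRKAG3 probe was low, with 39.7% of all probes dimmer on average, and its tissue pattern was a common one. Over the 16 tissue means 1812 other probes correlated with it at r above 0.9, or 7.57% of all, whereas the other members had between 0 and 142 such probes. It also followed the mean of the 11963 other probes below the median level, which was 4.45 in blood, 4.17 in biceps femoris, 4.11 in liver, 4.04 in diaphragm and 3.92 in thyroid gland. Over tissue means the correlation of PRKAG3 with this mean was 0.89, and 0.73 over the 15 tissues without blood. For the other 8 member probes it lay between -0.56 and 0.17 over the 16 tissues. Without blood it was 0.65 for PRKAA2 and 0.60 for PRKAB2, whose muscle levels are far above the rest. These points share arrays and scaling, and the part of the dim-probe level in the values of PRKAG3 was not tested.

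**Figure D3:**
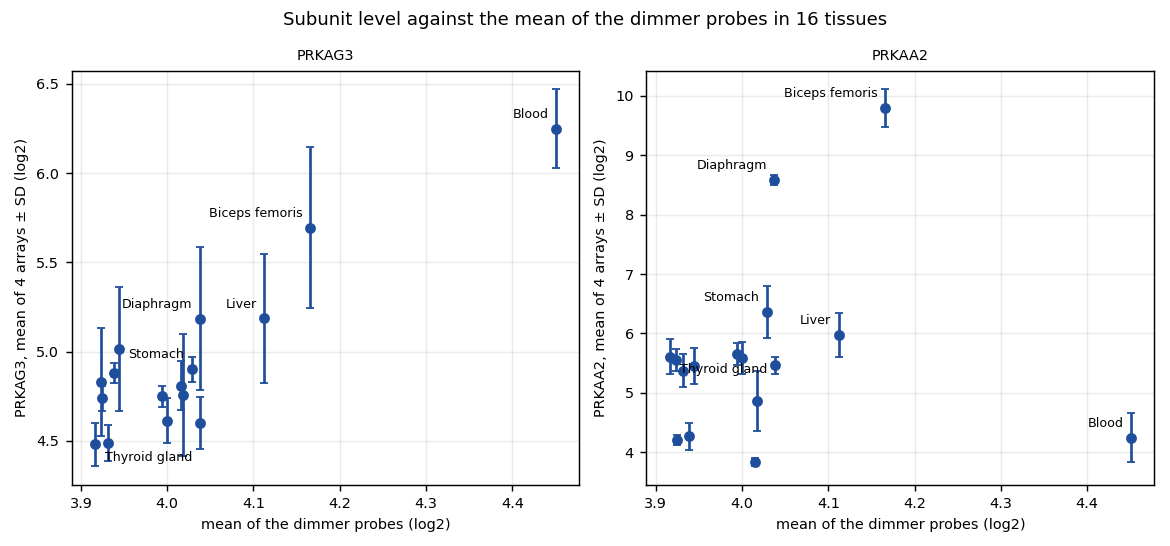
Mean level of PRKAG3 (left) and of PRKAA2 (right) in each of the 16 tissues, with the SD of 4 arrays, against the mean level of the 11963 dimmer probes in the same tissue, all in log2 units. PRKAG3 rises with the dimmer probes from thyroid gland to blood (r = 0.89), while PRKAA2 is high in the muscles and low in blood.

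The annotation used by the study names another probe as PRKAG3, which has no gene on the platform. As it is known here only through lists chosen on these same arrays, its values are a description. It was highest in pineal gland (7.12 ± 0.51, SD, n = 4), olfactory bulb (7.10 ± 0.07) and neurohypophysis (7.02 ± 0.20), with biceps femoris at 6.35 ± 0.18 and diaphragm at 6.03 ± 0.24. Its correlation with the platform's probe was -0.07 over the 16 tissue means. The 2 probes thus gave unrelated tissue patterns, neither of them highest in muscle.

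In the contrast of both muscles against the other 14 tissues, all 9 member probes passed, where 70.3% of all probes did. The 5 probes of PRKAA2, PRKAB2, PRKAG3 and PRKAG1 were higher (35.4% of all probes were), and the 4 of PRKAA1, PRKAB1 and PRKAG2 were lower (34.9%). The direction split by isoform: of the catalytic pair α2 was higher and α1 lower, and of the scaffold pair β2 was higher and β1 lower. By size PRKAA2 and PRKAB2 stood alone, since every other difference was below 1 log2 unit. The median over all probes in this contrast was 0.02. The 3' minus 5' signal of the GAPDH control probes, a sign of RNA quality that also depends on the probes, moved with the muscles, at 1.13 to 1.71 in the 8 muscle arrays and 0.163 to 1.22 in the other 56, with blood lowest at 0.163 to 0.509. That of the actin control probes was -0.25 to 0.22 in the muscles and -2.08 to -0.02 elsewhere. The part of these values in the differences of the subunits in muscle and in blood was not tested.

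**Figure D4:**
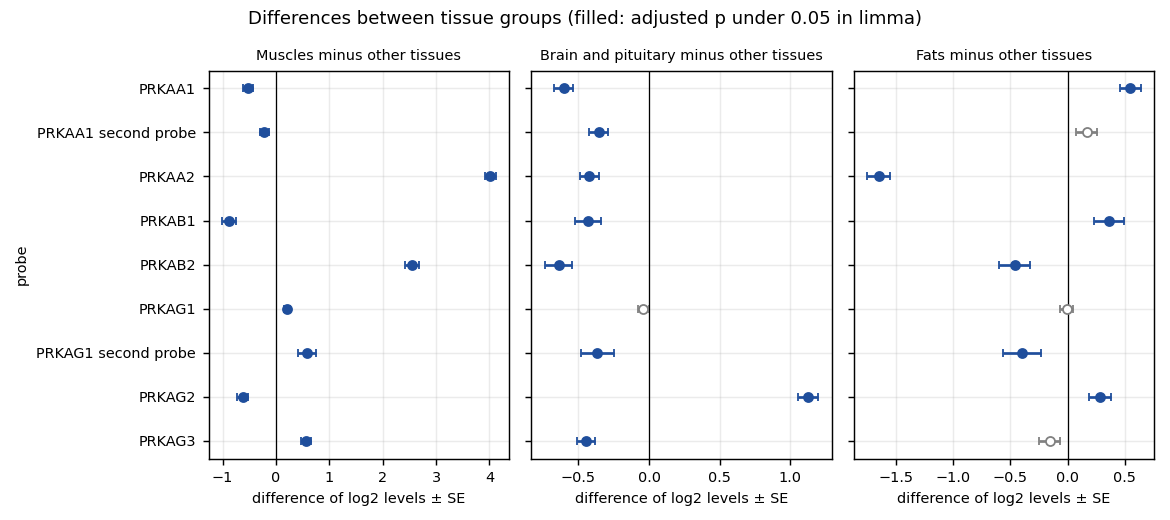
Difference of log2 levels with its standard error for the 9 member probes, from left to right for the muscles, for brain and pituitary, and for the fats, each against all other tissues. Filled points passed in limma; PRKAA2 (4.02) and PRKAB2 (2.54) lie far to the right in muscle, PRKAG2 alone is to the right in brain and pituitary, and PRKAA2 is lowest in fat (-1.65).

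Diaphragm, which works without pause in breathing, and biceps femoris, a limb muscle, were compared directly. PRKAA2 was 1.21 ± 0.18 (SE) or 2.32-fold lower in diaphragm (adjusted p = 2.8e-06, limma), with no overlap between the 4 arrays of each muscle. PRKAG3 was 0.51 ± 0.17 lower in diaphragm (adjusted p = 0.023), with overlapping values. These 2 of 9 probes passed, against 25.1% of all probes. The call of PRKAG3 was lost without the Large White female (adjusted p = 0.10), without the Iberian female (0.49), and without the 2 arrays that stood apart (0.16). Leaving out those 2 arrays brought PRKAG1 past the threshold instead, 0.36 ± 0.11 higher in diaphragm (adjusted p = 0.017). PRKAB2 differed by less than 0.01 between the muscles, with a standard error of 0.25.

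Some fibre type markers differed between the same muscles. The 6 probes of 5 fast fibre genes averaged 11.43 to 12.19 in diaphragm and 12.21 to 12.52 in biceps femoris, and the 6 slow fibre probes 13.16 to 13.29 and 12.78 to 12.97. Of the 12 probes, both of ATP2A1, the calcium pump of fast fibres, and the TNNT3 probe, a fast troponin, were lower in diaphragm, and the probe of the slow troponin TNNI1 was higher. The other 8 did not pass, so that 4 of 12 were called where 25.1% of all probes were. The part of fibre composition in the difference of PRKAA2 was not tested. Both muscles held slow and fast markers at high levels.

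Brain and pituitary differed from the other 11 tissues in 8 of 9 member probes, where 79.2% of all probes did. Of these PRKAG2 alone was higher (29.8% of all probes were) and the other 7 were lower (49.3%). PRKAB2 was lower by 0.64 ± 0.10 (SE; adjusted p = 6.3e-08, limma), PRKAA1 by 0.61 ± 0.06 (adjusted p = 4.0e-12), PRKAG3 by 0.45 ± 0.07, PRKAB1 by 0.43 ± 0.09 and PRKAA2 by 0.42 ± 0.07. The brighter PRKAG1 probe differed by -0.04 ± 0.04 (adjusted p = 0.34). The median over all probes was -0.12. For PRKAA2 and PRKAB2 the other tissues include the muscles, whose levels set much of their mean: the median of the 20 brain and pituitary arrays was 5.41 against 5.43 for the other 44 in PRKAA2, and 5.45 against 5.59 in PRKAB2.

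The fats differed in 6 of 9 member probes, with 55.8% of all probes called. There were 3 higher and 3 lower, where 22.8% and 33.0% of all probes were. PRKAA2 was 1.65 ± 0.10 (SE) or 3.13-fold lower (adjusted p = 1.2e-20, limma), and its 8 fat arrays lay between 3.96 and 4.48. Here too the other tissues include the muscles. The median was 4.26 in fat against 5.58 in the other 56 arrays for PRKAA2, and 5.50 against 5.66 for PRKAB2. PRKAA1 was 0.55 ± 0.09 higher on its brighter probe (adjusted p = 7.4e-07), at 5.39 to 6.09, and 0.17 ± 0.09 higher on its second, which did not pass (adjusted p = 0.12). The catalytic pair was therefore opposed in fat in the reverse sense to muscle on the brighter probe of PRKAA1. The other 4 calls were smaller and were each lost under at least 1 alternative. They were PRKAB1 (0.36 ± 0.13), PRKAG2 (0.28 ± 0.10), PRKAB2 (-0.46 ± 0.14) and the second PRKAG1 probe (-0.40 ± 0.16). PRKAB1 lost its call without the Iberian male (adjusted p = 0.092), PRKAG2 also without the Iberian male (0.12), PRKAB2 without the Large White female (0.065) and the second PRKAG1 probe without the Large White male (0.067), the Large White female (0.16) or the Iberian male (0.069).

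Over the 16 tissue means PRKAA2 and PRKAB2 correlated at r = 0.80, but at -0.21 over the 14 tissues without the muscles, so that the relation rested on the muscles. PRKAA1 and PRKAB1 correlated at 0.80 and, without the muscles, at 0.76. PRKAG2 and PRKAG3 were opposed, at -0.69 and -0.66. Both of these include blood, the lowest tissue of PRKAG2 (4.83) and the highest of PRKAG3 (6.25), and the part of blood was not tested. All these correlations describe tissues that share animals and arrays.

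The breeds differed for PRKAB2. Averaged over the 16 tissues its level was 6.08 in the Large White male and 6.54 in the Large White female, against 5.52 in the Iberian female and 5.48 in the Iberian male. The difference of 0.81 gave a z-score of 4.77 among all probes (adjusted p = 4.4e-04), the 1 member of 9 that passed, with 1.01% of all probes called. This z-score is modelled on the one in the study's methods but uses differences of means in place of mixed-model predictions, so that neither its values nor its calls are those of the study. The score places a probe among probes and holds no error between animals. With the animal as the unit, in limma on the 4 animal means, the difference was 0.81 ± 0.12 (SE) with an unadjusted p = 0.0019 and an adjusted p = 0.18, and 0.0919% of all probes passed. With all 64 arrays as units the adjusted p was 9.5e-10, where 12.7% of probes passed, as did PRKAA2 (0.20 ± 0.07, adjusted p = 0.028) and the second PRKAG1 probe (0.32 ± 0.11, adjusted p = 0.043). That fit counts the 16 arrays of an animal as separate units, so its p does not measure the spread between animals. In limma on the 4 animal means the adjusted p was 0.31 for PRKAA2 and 0.24 for the second PRKAG1 probe.

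Tissue by tissue, both Large White arrays were above both Iberian arrays for PRKAB2 in 14 of 16 tissues, an arrangement found in 19.9% of all probe and tissue pairs. The exceptions were back fat, at 5.51, 5.97, 5.58 and 5.37, and stomach, at 5.49, 6.34, 6.40 and 5.69. The tissues come from the same 4 animals and are not 14 independent cases. The difference was largest in biceps femoris and in ileum, at 1.69 in each, and was 1.26 in thyroid gland and 1.05 in diaphragm. It was smallest where it was positive in blood, at 0.24, and was -0.13 in stomach. The breed difference varied between tissues (adjusted p = 0.0081 for the breed by tissue terms in limma with the animal as a block, 2.47% of all probes called). In the muscles it was 0.64 ± 0.18 (SE) larger than in the other 14 tissues (adjusted p = 0.046, with 1.97% of all probes called). No other member passed either of these tests.

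Within muscle, limma on the 4 animal means gave a PRKAB2 difference of 1.37 ± 0.23 (SE) with an unadjusted p = 0.0022 and an adjusted p = 0.92. No probe of the array passed there (0%), while 1125 had an unadjusted p below 0.05. In diaphragm alone the difference was 1.05 ± 0.20 (adjusted p = 0.35, with 0.00418% of all probes called) and in biceps femoris alone 1.69 ± 0.41 (adjusted p = 0.96). For 2 animals against 2, the smallest p an exact test can give is 0.333.

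**Figure D5:**
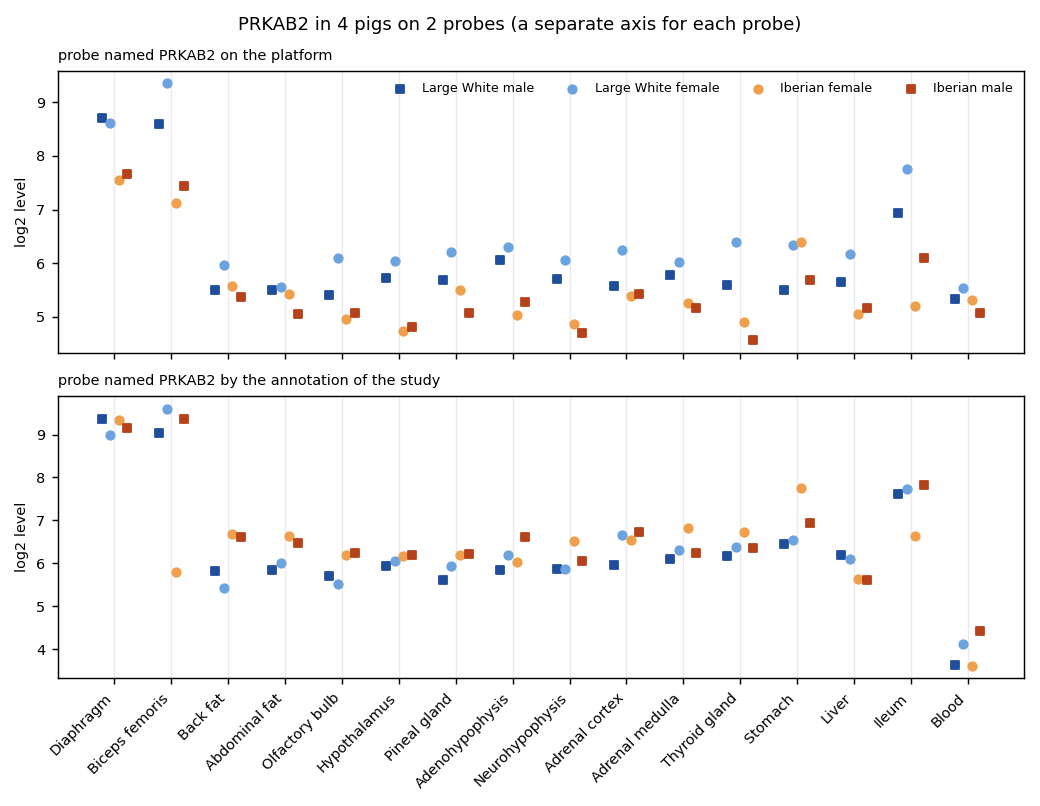
Log2 levels of the PRKAB2 probe of the platform (top) and of the probe that the study's annotation names PRKAB2 (bottom) in 16 tissues, 1 point per animal. On top the Large White points (blue) lie above the Iberian ones (orange and brown) in 14 tissues, while on the lower probe they do not, and the biceps femoris array of the Iberian female is at 5.79 there.

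The breed difference was not seen on the other probe that the study's annotation calls PRKAB2. That probe had the muscle pattern, with 9.37, 9.0, 9.35 and 9.15 in diaphragm and 9.02, 9.60, 5.79 and 9.36 in biceps femoris, and its tissue means correlated with the platform's probe at r = 0.87. Its mean over the tissues was 6.32 and 6.46 in the Large White animals and 6.46 and 6.69 in the Iberian animals, a difference of -0.18. In biceps femoris the value of the Iberian female stood apart, and in blood the probe was at 3.64, 4.11, 3.62 and 4.41. The 2 probes thus shared the high level in muscle and not the difference between breeds.

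For the other members the breed differences over the 16 tissues were smaller than for PRKAB2. PRKAB1 was lower in the Large White animals by 0.22, with both of their arrays below both Iberian arrays in 8 of 16 tissues (20.6% of all probe and tissue pairs), and the largest differences were -1.10 in biceps femoris and -0.99 in pineal gland. In those 2 tissues lie the arrays that stood apart. PRKAA2 was higher in the Large White animals by 0.20, with both of their arrays above in 8 tissues (19.9% of all probe and tissue pairs) and below in 0. The second PRKAG1 probe was higher by 0.32, with both Large White arrays above in 9 tissues, most in liver (1.5). They were below in 2, ileum (-0.83) and blood (-0.68). The brighter PRKAG1 probe differed by 0.03. PRKAG3 differed by -0.10, and 65.1% of probes had a smaller z-score in size than its -0.60. Between males and females no member passed by the z-score (0.393% of all probes did) or in limma on the animal means (0.0627%) or on the 64 arrays (1.45%). The largest sex difference was that of PRKAB2, 0.25 lower in males, where the Large White female was the highest and the Iberian male the lowest animal.

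The genes whose probes ran most like a member over the 16 tissue means were taken from 9765 named probes. For PRKAB2 they were CKM (r = 0.97), the muscle creatine kinase, PRKAR2A (0.97), a regulatory subunit of protein kinase A, and DES (0.96), the desmin gene. For PRKAA2 they were SLC25A11 (0.89), PACSIN3 (0.89) and NEB (0.89), the nebulin gene of the sarcomere. PRKAA1 had LRP10 (0.93), VAMP8 (0.92) and KHNYN (0.89), and PRKAB1 had ACBD3 (0.88), RNF149 (0.87) and ABHD14B (0.83). PRKAG1 ran with FAM3A (0.89), SLC25A3 (0.88), the mitochondrial phosphate carrier, and NABP2 (0.85), and PRKAG2 with ZC4H2 (0.92), SYBU (0.87) and GUCY1B3 (0.87), a subunit of soluble guanylate cyclase. For PRKAG3 the 5 closest were SSTR5, IGF2, ESYT2, PSORS1C2 and STK11, each at r = 0.98. All 5 were highest in blood. As given above, this pattern was a common one, with 1812 of the other probes (7.57%) at r above 0.9, so that the 5 names single out little. Over the 64 arrays instead of the 16 means, CKM, VAMP8, FAM3A, GUCY1B3 and IGF2 ranked 1st for their members.

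The kinases that act on AMPK or resemble it, and its targets, were also read where the array names them. Of 8 upstream kinases and partners 3 genes were measured, by 9 probes, of which 7 were higher and 2 lower in muscle (35.4% and 34.9% of all probes were), with a median of 0.49 against 0.02 for all probes. STRADB, a pseudokinase of the LKB1 complex, had the largest differences, with 3 probes at 2.25 ± 0.10 (SE), 2.07 ± 0.06 and 1.91 ± 0.10 above the other tissues. The 56 arrays outside muscle were widely spread on these probes (SD 1.30, 1.18 and 1.12). Their highest values, 11.02, 12.15 and 11.99, were above every muscle array, so that muscle did not hold the highest levels of STRADB. A probe of STK11, the LKB1 kinase itself, was 0.62 ± 0.07 higher. In brain and pituitary 8 of these 9 probes were lower, where 49.3% of all probes were. In fat 4 were lower, all of them of STRADB, and 0 higher, where 33.0% and 22.8% of all probes were. In blood 7 were higher, where 43.5% of all probes were, and the median of 1.22 was above that in muscle.

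Of 16 AMPK substrates and targets 7 genes were measured, by 13 probes. In muscle 10 probes were higher and 0 lower (35.4% and 34.9% of all probes), with a median of 0.42. Blood had 7 higher, where 43.5% of all probes were, and 2 lower. The median in blood was 0.51, against 0.11 for all probes. GYS1, the muscle glycogen synthase that AMPK phosphorylates, was 3.35 ± 0.09 (SE) higher on its brightest probe, at 7.94 to 9.59 in the 8 muscle arrays and 4.31 to 6.62 elsewhere. All 3 GYS1 probes were lower in diaphragm than in biceps femoris, by 1.10 ± 0.17, 0.91 ± 0.16 and 0.66 ± 0.14, the same direction as PRKAA2. LIPE, the hormone-sensitive lipase, was 6.08 ± 0.15 higher in fat, at 10.48 to 11.36 against 3.58 to 7.57, and 2.12 ± 0.10 lower in brain and pituitary. In brain and pituitary 12 of the 13 probes were lower and 0 higher, where 49.3% and 29.8% of all probes were.

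Of 8 genes of downstream energy metabolism 6 were measured, by 11 probes, with 7 higher and 3 lower in muscle (35.4% and 34.9% of all probes) and a median of 0.36. Blood had 6 higher, where 43.5% of all probes were, and 2 lower. The median in blood was 0.75, against 0.11 for all probes. CPT1B, the muscle form of the carnitine palmitoyltransferase that brings fatty acids into mitochondria, was 4.09 ± 0.10 (SE) higher, and PPARGC1A, a coactivator of mitochondrial genes, 2.45 ± 0.22. FASN, the fatty acid synthase, was 2.01 ± 0.14 lower on its brightest probe, and CPT1A 1.42 ± 0.08 lower. In fat FASN was 3.95 ± 0.14 higher and PPARGC1A 3.64 ± 0.22 lower. CPT1B was higher in diaphragm than in biceps femoris, by 0.79 ± 0.19 (adjusted p = 0.0013, limma), which is the reverse of PRKAA2 and GYS1. Of 13 AMPK-related kinases 8 were measured, by 13 probes. In muscle 6 probes were higher and 2 lower, a share of higher probes near the 35.4% of all probes. In fat 6 were higher and 2 lower, where 22.8% and 33.0% of all probes were, led by 3 probes of SIK2, a kinase known from adipocytes, at 3.23 ± 0.11, 3.15 ± 0.10 and 1.89 ± 0.09. The list of the binding partners FLCN, FNIP1 and FNIP2 had 0 named probes.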

How the data were processed

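The authors extracted total RNA, hybridised it to Affymetrix porcine arrays, generated the signals with GCOS (also named in the submitters' processing notes), and ran RMA over the 64 arrays with libaffy, whose version is not given in the sources used here. Deposited were log2 levels of 24123 probe sets on 64 arrays, with 0 columns left without a sample. After leaving out 188 control probe sets 23935 probes remained. RMA aligns the distributions of arrays, so that a tissue with an unusual make-up, such as blood, can have its other probes shifted. The deposited levels were still not fully alike. The mean of the 11963 dimmer probes was 4.45 in blood and 3.92 (thyroid gland) to 4.17 (biceps femoris) in the other tissues. A further quantile normalization, which makes the levels alike, moved the blood difference of PRKAG1 from -0.56 to 0.02. It cannot show which of these values is nearer to the RNA, and a shift in blood was not tested.

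Symbols were those of GEO's platform annotation, of unknown age: 10069 probes had 1 symbol, 198 several and 13668 none. All 9 member probes were found by Entrez number in the RefSeq gene table. No sequences or coordinates are given. Of 2 probes of a gene the brighter was described first. The 3 probes that the study's own annotation names as subunits are described by values, correlations and the search for single arrays, without tests between tissues or breeds. The members, lists and rules were chosen with earlier results of these data known. The text names all member probes, the 3 most similar genes of each member (5 for PRKAG3), and of each list at most 4 called probes per contrast.

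Contrasts between tissues came from limma 3.58.1 (R 4.3.3), with terms for tissue, breed and sex over 64 arrays, and all adjusted p are Benjamini-Hochberg values over the whole array at 0.05, from limma unless the z-score is named. Each tissue group was compared with the mean of all others. The z-score follows the form of the study's, dividing the breed or sex difference of a probe by the SD of such differences over all probes, but takes differences of means where the study took predictions of a mixed model, so its calls are not the study's. Extreme levels (all arrays of a tissue beyond all others) follow the methods. Descriptions used Python 3.11.15, numpy 2.4.6, pandas 2.3.3 and scipy 1.17.1, and figures matplotlib 3.10.9. On simulated data for 23935 probes the muscle contrast recovered 76% of shifts of 0.5 and 100% of shifts of 1 log2 unit. The simulated probes had independent noise, no other tissue differences and no likeness between arrays of an animal. These rates therefore check the code and are not the power of the real contrast.

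All tissues came from the same 4 animals, so arrays were paired by design: after removing tissue means, arrays of 1 animal correlated at 0.189 on average over 480 pairs. Arrays of a tissue come from separate animals. The number of arrays limits the precision. Alternatives tried were the animal as a block, each animal left out, the natural logarithm, a further quantile normalization, the probes above the median level, eBayes with trend and robust settings, tissue as the only term, leaving out the 2 arrays that stood apart, and the other probe of a gene. The interaction of breed and tissue, the probes named by the study and leaving out 1 pineal array (Large White male) alone were added after seeing the data.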

Additional observations from a re-analysis of the deposited data

Results flagged for a closer look

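Single arrays that stood apart from the other 3 of their tissue, by the gap to the nearest array over the whole range, were looked for in 192 groups of 4 arrays, 144 of member probes and 48 of the 3 probes named by the study's annotation. There were 9, where about 9.6 are due by chance, since chance gives about 1 in 20 groups.

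Among member probes the widest gap was that of PRKAB1 in pineal gland (Large White male), 6.15 against 8.07 to 8.10 in the other animals, on the array with glial rather than pineal markers. In the biceps femoris of the Iberian female, whose array also stood apart over all probes, the study-named probe of PRKAB2 read 5.79 against 9.02 to 9.60, and that of PRKAA1 read 2.74 against 4.52 to 4.86. On the member probes of the platform this array did not stand apart. The other 6 were on member probes. PRKAA2 in the stomach of the Iberian female was 5.71 against 6.50 to 6.63. PRKAG2 in the olfactory bulb of the Iberian female was 7.43 against 6.80 to 6.89. PRKAG3 in the adrenal medulla of the Large White male was 4.38 against 4.96 to 5.01. PRKAG1 in the hypothalamus of the Iberian male was 7.89 against 8.04 to 8.07. The second PRKAA1 probe was 5.22 against 4.67 to 4.73 in back fat (Iberian female) and 4.59 against 4.82 to 4.84 in the blood of the Large White female.

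The breed difference of PRKAB2 varied between tissues (adjusted p = 0.0081, limma), from -0.13 in stomach to 1.69 in biceps femoris and ileum.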

How the results depend on the processing

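Of 104 single results that passed, 62 kept direction and call under every alternative run for them, among them PRKAA2 and PRKAB2 in muscle, PRKAG2 in brain and pituitary, PRKAG1 in both adrenal tissues on both probes, PRKAA2 in fat and PRKAG3 in blood. A change of sign was seen in 2: PRKAG1 in blood (0.0156 after a further quantile normalization) and PRKAA1 in abdominal fat (-0.13 on its other probe). With the animal as a block (pairing by animal), the calls were 9 for the muscles, 2 between the muscles, 8 for brain and pituitary, 6 for the fats, 79 for single tissues and 565 for pairs, and no call was lost. Keeping only probes above the median level left 5 of the 9 member probes, so that counts fell by construction: 5 for any difference and for the muscles, 1 between the muscles, 4 for brain and pituitary, 48 for single tissues and 366 for pairs. Leaving out each animal in turn gave 7 to 9 calls for the muscles, 1 to 2 between the muscles, 8 to 9 for brain and pituitary, 4 to 6 for the fats, 63 to 73 for single tissues, 490 to 514 for pairs and 3 to 6 extreme members against 3, the 6 without the Large White male. For breed, 1 member passed by the z-score, 0 by limma on the animal means and 3 by limma over 64 arrays. The breed result of PRKAB2 rests on 2 animals per breed. Signal over background is unknown for these values, which limits statements on dim probes such as PRKAG3 and the second PRKAA1 probe.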
